A study of Homo sapiens with 24 samples.

Results

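Intronless protein-coding genes are genes whose whole transcript lies in 1 exon, so that their mRNA is made without splicing. They were taken here as the protein-coding genes outside the mitochondrial chromosome, histone genes left out, for which every GENCODE 29 transcript has 1 exon and whose summed transcript abundance averaged at least 0.5 TPM (each transcript's length-corrected share of a library) over the 12 libraries of a table. Of 900 such genes at any level, 194 reached that level in the whole-cell table, 179 in the fractionation table, 160 in both and 213 in either. The multi-exon protein-coding genes at the same level numbered 13114 and 13423. Those with a transcript length between the 10th and 90th percentile of the intronless genes, 8397 and 7973 genes, served for comparison and are called multi-exon genes of similar length. In whole cells the genes just inside the limit were RIMBP3 (0.518 TPM), TRAM1L1 (0.523 TPM) and FBLL1 (0.524 TPM), and those just outside it were RPA4 (0.482 TPM), POU3F3 (0.475 TPM) and ARL14 (0.462 TPM). In the fractionation table they were IFNA13 (0.518 TPM), SOWAHB (0.547 TPM) and POU5F2 (0.551 TPM) inside, and FAM243B (0.474 TPM), FOXD2 (0.468 TPM) and C15orf62 (0.468 TPM) outside.

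The libraries held poly(A)-selected RNA of A549, an established human lung adenocarcinoma cell line of epithelial type, labelled wild type. Whole cells formed 4 groups of 3 libraries: control siRNA, a pool of siRNAs against TAOK2, DMSO, and compound 2, labelled as an inhibitor of the TAOK2 kinase. The labels read here state neither its dose nor its time. All 12 whole-cell titles also carry the word mock, which they do not explain. Fractionated cells formed 6 groups of 2 libraries: total, nuclear and cytoplasmic RNA for each siRNA. Both siRNAs were used at 30 nM, and each group has 1 library per batch. TAOK2 encodes a serine/threonine kinase. Nothing in the labels says that libraries of a group came from separate cultures beyond their batch, so p-values measure the spread between these libraries, which may be technical.

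An ordinary mRNA is handed to the export machinery while it is spliced, because protein complexes deposited at exon junctions help to recruit export factors. Intronless mRNAs lack those complexes and reach the cytoplasm by other contacts with the export machinery. Genes of this kind include early-response transcription factors such as JUN, many receptors, and copies of other genes that arose by reverse transcription of an mRNA.

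The members varied widely in length, composition and level. Transcripts of the 194 whole-cell members ran from 192 to 9593 nucleotides, with a median of 2510, beside 2609 for the multi-exon genes of similar length. Their median GC content was 54.1%, beside 50.4%, and their median level was 6.02 TPM, beside 19.8 TPM. In the fractionation table the corresponding GC contents were 51.2% and 48%, and the levels 4.84 and 15.7 TPM. A gene on the same strand enclosed 20 of the whole-cell members and 19 of the fractionation members. No other gene overlapped 100 of the 194. At least 90% of the 31-base words of the transcript occurred in no other gene for 143 of the 194, and 11 had less than 50%.

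The coding starts below come from members among those with the largest nuclear-cytoplasmic differences in control cells, at least 90% unique words and no enclosing gene. They are shown because GC content moved with the fraction in which a member was higher. Each is the first 150 coding bases, read from the GENCODE 29 transcript and placed on GRCh38, with G and C in capitals. SF3B5 (chr6:144095348-144095497, minus strand) and SEPHS2 (chr16:30445578-30445727, minus strand) were lower in the nucleus. CSTF2T (chr10:51699400-51699549, minus strand), UTP3 (chr4:70688678-70688827, plus strand) and WDR5B (chr3:122415379-122415528, minus strand) were higher there.
SF3B5: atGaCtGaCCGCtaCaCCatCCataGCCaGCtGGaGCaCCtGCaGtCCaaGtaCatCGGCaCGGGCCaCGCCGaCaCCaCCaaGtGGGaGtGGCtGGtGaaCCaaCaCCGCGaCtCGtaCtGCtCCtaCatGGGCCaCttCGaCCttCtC
SEPHS2: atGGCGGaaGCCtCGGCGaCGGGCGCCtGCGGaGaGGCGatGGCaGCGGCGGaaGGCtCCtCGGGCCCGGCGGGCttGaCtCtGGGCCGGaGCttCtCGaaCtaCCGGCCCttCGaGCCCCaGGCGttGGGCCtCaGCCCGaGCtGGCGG
CSTF2T: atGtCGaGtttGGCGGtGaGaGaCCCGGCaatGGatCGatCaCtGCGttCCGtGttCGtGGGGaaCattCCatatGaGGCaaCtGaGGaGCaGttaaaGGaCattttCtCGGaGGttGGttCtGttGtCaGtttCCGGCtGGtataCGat
UTP3: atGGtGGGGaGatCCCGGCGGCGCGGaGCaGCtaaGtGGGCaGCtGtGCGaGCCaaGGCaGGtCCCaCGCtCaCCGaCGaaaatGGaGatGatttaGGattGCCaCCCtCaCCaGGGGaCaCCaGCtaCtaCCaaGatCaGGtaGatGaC
WDR5B: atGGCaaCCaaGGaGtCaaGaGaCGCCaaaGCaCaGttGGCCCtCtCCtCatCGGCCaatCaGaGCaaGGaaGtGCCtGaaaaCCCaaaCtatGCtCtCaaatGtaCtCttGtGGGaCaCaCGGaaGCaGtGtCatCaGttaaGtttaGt
The GC content of these stretches was 60% and 74% for SF3B5 and SEPHS2, and 50.7%, 59.3% and 48.7% for CSTF2T, UTP3 and WDR5B. Over the whole transcript it was 56.6% and 51.3% for the first group and 43.4%, 44.8% and 40.5% for the second. The stretches do not separate the groups by much, since UTP3 and SF3B5 differ by less than 1 base in 100 there.

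Labels and cell type were checked first. TAOK2 lay between 34.3 and 40.3 TPM in whole cells with control siRNA and between 8.56 and 12.5 TPM with TAOK2 siRNA (log2 change -1.75 ± 0.15 SE, limma adjusted p = 2.4e-05). In total RNA of the fractionation experiment it was 9.70 and 5.01 TPM with control siRNA and 3.67 and 2.99 TPM with TAOK2 siRNA, a difference that did not pass (adjusted p = 0.895). Markers of A549 and epithelial cells were present, 9 of 9 at 1 TPM or more in whole cells and 8 of 9 in fractions, with summed levels of 12800 to 18600 and 11000 to 24000 TPM. Leukocyte, fibroblast and endothelial markers summed to at most 32.2, 31.2 and 1.24 TPM in any whole-cell library and 73.8, 50.9 and 6.13 TPM in any fraction library. No library stood apart in a way that changed its label. TPM does not keep read totals, so counting error is unknown here. In bulk RNA, fewer cells of a kind and less RNA per cell cannot be told apart.

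Because TPM values of a library sum to a constant, an abundant class of RNA lowers all others, and mitochondrial mRNA differed strongly between fractions. In control cells it took up 37.9% to 42.5% of TPM in nuclear RNA, 10.8% to 13.9% in cytoplasmic RNA and 4.34% to 6.63% in total RNA. A gene's nuclear minus cytoplasmic difference is therefore read below against that of other genes. Recomputing TPM over protein-coding genes outside the mitochondrial chromosome moved the median of all tested genes by 0.50 log2 units in control cells, and centring each library on its median gene moved it by -0.42.

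In control cells, intronless genes lay lower in the nucleus, relative to the cytoplasm, than multi-exon genes of similar length. The exceptions were the shortest and, as given further below, those under 45% GC. Their median nuclear minus cytoplasmic difference was -0.08 on the log2(TPM + 1) scale, beside 0.12 for multi-exon genes of similar length and 0.26 for all genes tested. The difference of the medians was -0.19, with -0.18 and -0.25 in the 2 batches. It was absent in the shortest length quartile (192 to 1714 nucleotides), with medians of 0.02 for members and 0.01 for multi-exon genes. In the longer quartiles the medians were -0.28 and 0.04, -0.20 and 0.25, and 0.07 and 0.37. Of the 179 members, 26 were higher in the nucleus and 37 higher in the cytoplasm (limma, adjusted p under 0.05), or 14.5% and 20.7% (35.2% in all). Over all 15256 genes tested the shares were 30.8% and 17.2%, 48.1% in all, and among multi-exon genes of similar length 25.9% and 19.2% (45.1%). With TPM recomputed over protein-coding genes the counts turned to 61 higher and 13 lower of the 179 members, beside 48.2% and 8.75% of all genes. With median centring they were 18 and 64 of the 179, beside 19.3% and 28%. With batch as a block they were 42 and 56 of the 179, beside 41.2% and 25.3%. Leaving out any 1 of the 4 libraries left 19 to 22 higher and 18 to 24 lower. The split thus depends on scaling, while the difference of the medians was negative under every alternative tried (-0.36 to -0.12).

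Members higher in the cytoplasm came from many lists: 6 of 12 vesicle, organelle and membrane proteins, 6 of 12 signalling adaptors, 5 of 11 receptors, 3 of 8 metabolic enzymes and 4 of 22 RNA-binding proteins. Of all genes tested, 17.2% were higher in the cytoplasm, and the RNA-binding proteins lay near that share. With batch as a block, 7 of the 22 passed, and 6 of 10 developmental transcription factors in place of 1, beside 25.3% of all genes. SF3B5, a small subunit of the SF3b splicing complex, was at 30.3 and 41.8 TPM in control nuclei and at 127 and 163 TPM in control cytoplasm. Total RNA gave 92.6 and 166 TPM, close to the cytoplasm. The difference was -1.99 ± 0.31 (SE, n = 2 libraries a group, limma adjusted p = 0.00105). SEPHS2, which makes the selenium donor for selenoproteins, was at 24.5 and 25.3 TPM in nuclei and at 80.7 and 75.9 TPM in cytoplasm (-1.61 ± 0.14, adjusted p = 6.19e-05). The groups did not overlap for either gene. MGAT2, a Golgi enzyme that adds a branch to N-glycans, was at 11.9 and 13.5 TPM against 33.9 and 38.2 TPM (-1.43 ± 0.17, adjusted p = 0.000212). THAP11, a zinc-dependent DNA-binding regulator with 81.1% unique words, fell from 18.3 and 15 TPM in cytoplasm to 5.63 and 4.31 TPM in nuclei (-1.57 ± 0.23, adjusted p = 0.000731). TMEM203, a membrane protein of the endoplasmic reticulum, and ADO, which oxidises cysteamine, differed by -1.39 and -1.28. C6orf120, RNF26, a ubiquitin ligase of the endoplasmic reticulum, and DOLK, the kinase that makes dolichol phosphate, followed at -1.22, -1.11 and -1.0. F8A1 was at -1.18, but only 3.68% of its words are unique, since near-identical copies exist. SFT2D3, none of whose words are unique, was named after its values were seen: it was listed at 0 in both control nuclei and in total RNA, and at 2.64 and 3.44 TPM in cytoplasm. DOLK, F8A1 and RNF26 no longer passed with TPM recomputed over protein-coding genes, nor without the first control cytoplasmic or the second control nuclear library.

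**Figure D1:**
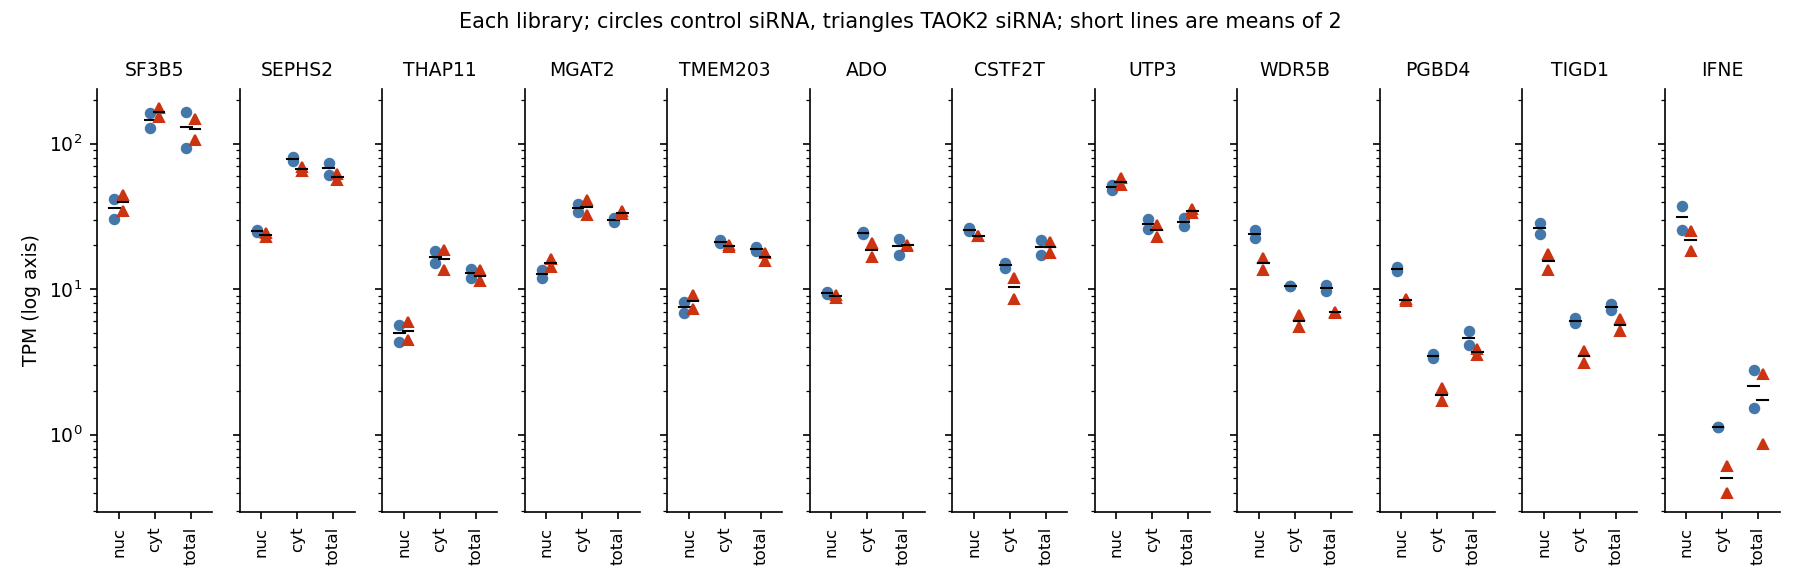
TPM of 12 intronless genes (log axis) in nuclear, cytoplasmic and total RNA, 1 point per library, circles for control siRNA and triangles for TAOK2 siRNA, with short lines for the mean of 2 libraries. The first 6 genes are higher in the cytoplasm than in the nucleus and the last 6 are higher in the nucleus, with SF3B5 at 30.3 and 41.8 TPM in control nuclei and IFNE at 25.4 and 37.2 TPM.

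The members higher in the nucleus included interferon genes and genes derived from mobile elements or a virus. TIGD1, derived from a DNA transposon of the Tigger type, was at 24.1 and 28.5 TPM in control nuclei, 5.81 and 6.30 TPM in cytoplasm and 7.19 and 7.86 TPM in total RNA (1.95 ± 0.19, limma adjusted p = 0.000102). PGBD4, derived from a piggyBac transposon, was at 14.1 and 13.3 TPM in nuclei and 3.61 and 3.37 TPM in cytoplasm (1.71 ± 0.17, adjusted p = 0.000117). EBLN2, a remnant of a bornavirus-like gene, was at 2.46 and 3.10 TPM in nuclei and at most 0.0219 TPM in cytoplasm (1.89 ± 0.19). The list of genes derived from transposons or retroelements, in which EBLN2 was counted, had 5 members. Of these, 3 were higher in the nucleus and none was lower, beside 30.8% and 17.2% of all genes tested. None was lower with TPM recomputed or centred either, where 4 and 3 were higher. EBLN2 averaged 1.01 TPM over the table and passed the limit of 0.5 TPM mainly through nuclear RNA, so its direction was set in part by that limit. PNMA1, a gene of retroelement origin, did not pass (0.17 ± 0.22, adjusted p = 0.551). TIGD1 and PGBD4 have 76.7% and 86.5% unique words.

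All 3 interferon genes in the fractionation table were higher in the nucleus, also under both other scalings. IFNE, an epithelial type I interferon, was at 25.4 and 37.2 TPM in control nuclei and at 1.12 TPM in both control cytoplasmic libraries (3.91 ± 0.35, limma adjusted p = 6.87e-05). It lies inside the long noncoding gene MIR31HG on the same strand, whose exons it does not share. IFNA1 was at 7.22 and 12.1 TPM against 1.26 and 1.74 TPM, and IFNA13 at 1.79 and 1.76 TPM against 0.141 and 0.160 TPM. Only 37.6% and 64.4% of their words are unique, so the 2 cannot be cleanly told from other interferon genes. IFNA13 averaged 0.518 TPM over the table and passed the limit of 0.5 TPM only through nuclear RNA. It could thus count only as higher there, and the count of 3 rests in part on that limit. In total RNA IFNE was at 1.53 and 2.78 TPM, near its cytoplasmic level.

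Of the 19 members enclosed by a same-strand gene, 6 were higher in the nucleus and 1 lower (median 0.15), beside 20 and 36 of the 160 others (median -0.20). Over all genes tested the shares were 30.8% and 17.2% and the median 0.26, so the enclosed members lay near genes at large. OCLM, inside the gene ODR4, was at 2.53 and 3.08 TPM in control nuclei and at 0 and 0.113 TPM in cytoplasm (1.85 ± 0.17). TAS2R4, a bitter taste receptor inside SSBP1, was at 1.74 and 1.89 TPM in nuclei and at most 0.0152 TPM in cytoplasm. TAS2R5, its neighbour on chromosome 7, is not enclosed by a gene and was at 9.36 and 11.4 TPM in nuclei against 0.263 and 0.333 TPM in cytoplasm (3.13 ± 0.18, limma adjusted p = 1.54e-05). It was named after its values were seen. OCLM, TAS2R4 and EBLN2, all enclosed, were near 0 in control cytoplasm and averaged 0.956, 0.585 and 1.01 TPM over the table. They passed the limit of 0.5 TPM mainly through nuclear RNA, so they could hardly count as lower there. The 6 calls thus rest in part on that limit. The enclosing genes differed in direction. MYO18A, which encloses TIAF1 (1.2), was higher in the nucleus at 1.77 (limma adjusted p = 0.00412). ODR4 was at 0.42 (limma adjusted p = 0.197, or 0.02 with batch as a block), PPP4R2, which encloses EBLN2, at -0.36 (0.281 and 0.0675), and SSBP1 at -1.19 (0.124 and 0.000382). TXNDC12, around KTI12 (-0.76), the 1 enclosed member that was lower, was at -1.54 (adjusted p = 4.23e-05). MYO18A, TIAF1, TXNDC12 and KTI12 were named after their values were seen, and the enclosing genes of IFNE and PIGM were not tested. The part of the enclosing genes in these values was not tested.

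Among members with an essentially unique sequence, no enclosing gene and a mean of at least 5 TPM, nuclear differences were smaller. WDR5B, a copy of the chromatin-methylation subunit WDR5, was at 22.3 and 25.5 TPM in control nuclei and at 10.5 TPM in both cytoplasmic libraries (1.11 ± 0.17, limma adjusted p = 0.00089). UTP3, a protein of the ribosomal small-subunit processome, was at 51.9 and 48.2 TPM against 26 and 30.3 TPM (0.81 ± 0.16, adjusted p = 0.00346). CSTF2T, a copy of the polyadenylation factor CSTF2, was at 26.2 and 25 TPM against 13.9 and 15.2 TPM (0.78 ± 0.20, adjusted p = 0.0108). CSTF2T was lost as a call without the first library of either fraction, with adjusted p up to 0.065. The largest nuclear difference of any member belonged to BX004987.1, a gene of an unplaced scaffold (60.4 and 46.7 against 1.64 and 0.984 TPM), for which no sequence was used here.

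The MTRNR2L genes, nuclear copies of the mitochondrial 16S ribosomal RNA with a short humanin-like reading frame, formed a set of their own. MTRNR2L12 was the most abundant member, at 27900 and 28500 TPM in control nuclei, 9270 and 9600 TPM in cytoplasm and 5030 and 3760 TPM in total RNA (1.58 ± 0.17, limma adjusted p = 0.000144). The 8 such members had a median of 1.38, and 3 of them passed as higher in the nucleus: MTRNR2L12, MTRNR2L8 and MTRNR2L1. With batch as a block all 8 passed. Together they made up 3.07% to 3.16% of TPM in control nuclei and 1.03% to 1.07% in cytoplasm, while mitochondrial mRNA was 37.9% to 42.5% and 10.8% to 13.9%. These genes nearly copy each other and the mitochondrial 16S RNA, and 57.2% of the words of MTRNR2L12 are unique, so their levels are uncertain. MTRNR2L1 lost its call without the first control cytoplasmic library or either nuclear one, and MTRNR2L8 without the second cytoplasmic or first nuclear library. Without them the other members' median was -0.20.

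GC content moved with the fraction in opposite ways in intronless and multi-exon genes. This split was chosen after the data were seen, is given as a description, and has no test. In control cells, members below 45% GC had a median nuclear minus cytoplasmic difference of 0.42 (54 genes), beside -0.02 for multi-exon genes of similar length. From 45% to 55% the medians were -0.21 (55 genes) and 0.09, from 55% to 65% -0.48 (53 genes) and 0.32, and from 65% -0.46 (14 genes) and 0.28. Below 45%, 18 members were higher in the nucleus and 4 lower, beside 677 and 744 of 3046 multi-exon genes of similar length. From 55% to 65%, 1 member was higher and 13 lower, beside 573 and 169 of 2091. With batch as a block the members' counts were 27 and 5, and 3 and 24. Spearman's rho across genes between GC content and the difference was -0.45 over 176 members and 0.17 over 7967 multi-exon genes. Genes share the same 4 libraries and are not independent replicates. Within batches rho was -0.45 and -0.44 in members and 0.16 in both for multi-exon genes.

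The relation was weaker once members with other features were set aside. Without the MTRNR2L genes, the enclosed members and those with under 90% unique words, 115 members remained, with rho -0.23 (-0.26 and -0.22 by batch). Their medians were 0.25 below 45% GC (24 genes), -0.57 from 45% to 55% (35 genes), -0.51 from 55% to 65% (43 genes) and -0.52 from 65% (13 genes). Low and middle GC contents were thus still apart, and from 45% upward the medians were flat.

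**Figure D2:**
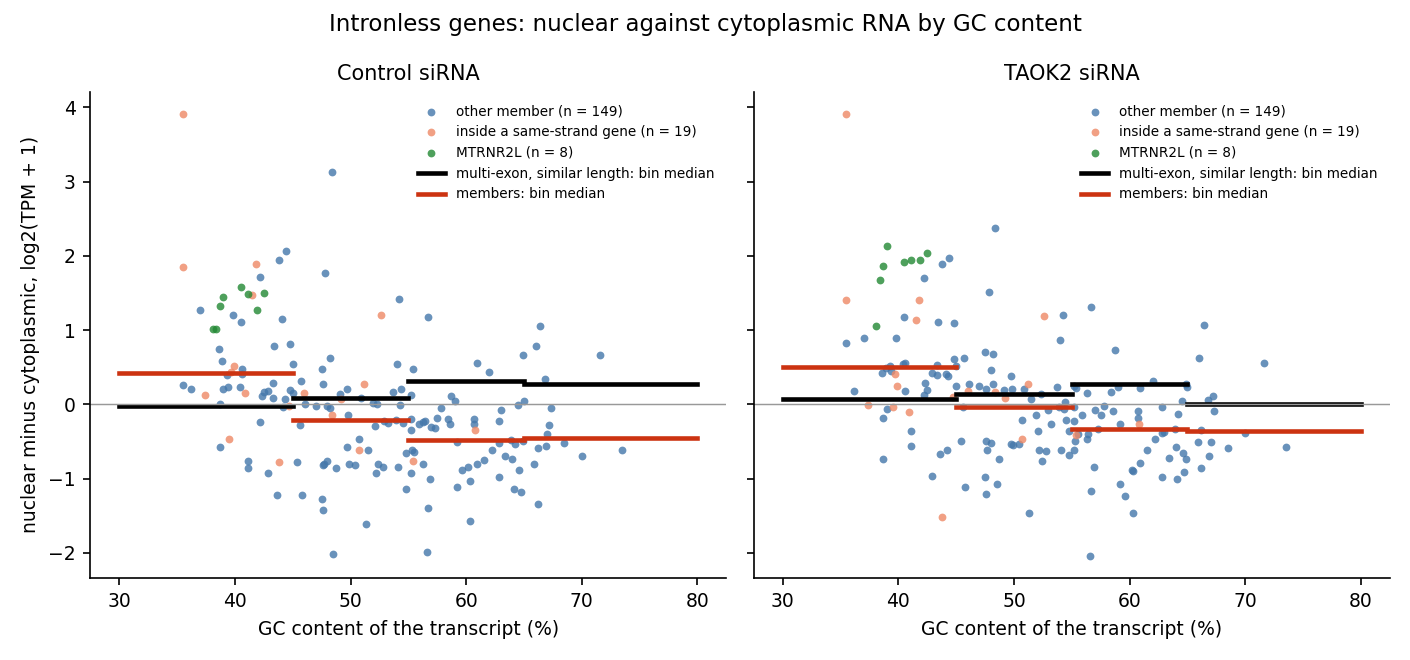
Nuclear minus cytoplasmic difference on the log2(TPM + 1) scale for each intronless gene (points, coloured by kind) against the GC content of its transcript, for control siRNA (left) and TAOK2 siRNA (right). Red lines are the members' medians in 4 GC bins and black lines those of multi-exon genes of similar length; in control cells red falls from 0.42 to -0.46 while black goes from -0.02 to 0.28.

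In cells with TAOK2 siRNA intronless genes also lay lower in the nucleus than multi-exon genes of similar length. The exceptions were the shortest, those below 45% GC and those above 20 TPM. Of 179 members, 28 were higher in the nucleus and 25 lower, or 15.6% and 14% (29.6% in all), beside 28.5% and 15% of all genes tested (43.5%) and 24.8% and 16.1% of multi-exon genes of similar length (40.9%). The medians were -0.03 for members and 0.15 for multi-exon genes of similar length, with a difference of -0.18 (-0.24 and -0.12 by batch). In the shortest length quartile (192 to 1714 nucleotides) they were 0.07 and -0.06. In the longer quartiles they were -0.27 and 0.06, -0.03 and 0.29, and 0.13 and 0.44. Below 45% GC they were 0.5 and 0.07, and above 20 TPM -0.03 and -0.02. With TPM recomputed over protein-coding genes the counts were 64 and 9 of the 179, and the median of all genes moved by 0.49. With batch as a block they were 45 and 48 of the 179 members, beside 40.6% and 23% of all genes. Without the first or the second TAOK2 nuclear library, 12 and 10 members were lower in the nucleus. SF3B5 differed by -2.04, SEPHS2 by -1.47, TIGD1 by 1.89, PGBD4 by 1.70 and IFNE by 3.91. Of the MTRNR2L genes 5 passed, and 8 with the block, with a median of 1.93. The relation with GC content was -0.46 over members, but it differed between batches: -0.57 and -0.30, and -0.46 and -0.09 without the set-aside members. In multi-exon genes it was -0.05 and 0.29.

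No change of these ratios with the knockdown was detectable. No member passed in the test of the ratio change between siRNAs, and neither did any of the 15256 genes (0%), by limma with or without the batch block. At an unadjusted p under 0.05, 2 members were counted (1.12%, beside 1.73% of all genes). They were TAS2R5, whose difference went from 3.13 to 2.38 (a change of -0.75 ± 0.26, limma adjusted p = 1), and SFT2D3 (0.93 ± 0.40, adjusted p = 1), named after their values were seen. In data simulated on these libraries, the test without the block found 2% of genes changed by 1 log2 unit and 53% at 2. The simulated noise was independent between libraries, unlike the batch deviations shared by the real ones. The test with the block was not simulated. Smaller changes could thus be missed.

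Within the fractions, TAOK2 siRNA against control siRNA gave no call among the members. Over all genes limma called 0% in total RNA, 0.0197% in nuclear RNA (0.0131% higher and 0.00655% lower) and 0% in cytoplasmic RNA. Among multi-exon genes of similar length the nuclear share was 0.0251%, all of it higher. At an unadjusted p under 0.05 there were 5 members in total RNA (2.79%, beside 6.52% of all genes), 15 in nuclear RNA (8.38%, beside 10.2%) and 21 in cytoplasmic RNA (11.7%, beside 6.61%). With batch as a block, 5 of the 179 members passed in nuclear RNA, beside 5.38% of all genes, and 5 of the 179 in cytoplasmic RNA, beside 2.34%. TIGD1 and WDR5B passed in both. TIGD1 went from 24.1 and 28.5 TPM to 13.6 and 17.5 TPM in nuclei (-0.73 ± 0.19 SE, limma adjusted p = 0.241 without the block) and from 5.81 and 6.30 TPM to 3.13 and 3.78 TPM in cytoplasm (-0.67 ± 0.19). WDR5B went from 22.3 and 25.5 TPM to 13.6 and 16.4 TPM in nuclei and from 10.5 TPM in both libraries to 5.50 and 6.61 TPM in cytoplasm. The groups did not overlap in either fraction for these genes. The other nuclear calls under the block were PGBD4 (-0.65), TAS2R5 (-0.87) and HASPIN, the kinase of histone H3 in mitosis, which rose from 1.45 and 1.69 TPM to 2.85 and 3.06 TPM. The other cytoplasmic calls were GPR27, an orphan receptor (-0.83), EID2 (-0.95) and CEBPB (-0.74). The members' median in cytoplasmic RNA was -0.16, beside -0.05 for multi-exon genes of similar length.

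In whole cells, TAOK2 siRNA changed about as large a share of intronless genes as of all genes. Of 194 members, 11 rose and 27 fell (limma, adjusted p under 0.05), or 5.67% and 13.9% (19.6% in all), beside 7.43% and 13.1% of all 14417 genes (20.6%) and 7.63% and 14.7% of multi-exon genes of similar length (22.3%). The medians were -0.05 for members and for multi-exon genes of similar length. Many calls rest on single libraries: 12 members fell without control library 1, 13 without control library 2 or TAOK2 library 2, and 14 without TAOK2 library 3. Rises numbered 7 and 6 without control libraries 1 and 2, and 5 without TAOK2 library 2. Rises named below were not all seen with TAOK2 siRNA in the fractionation experiment. In its total, nuclear and cytoplasmic RNA, THBD was at 0.33, 0.43 and 0.14, and RHOB at 0.03, -0.07 and -0.06. FZD8 was at -0.12, -0.13 and -0.36, OTUD1 at -0.25, -0.24 and -0.5, and ZCCHC3 at -0.02, 0.05 and -0.12. Of the falls, EID2 (-0.3, -0.26 and -0.95) and CEBPB (-0.59, -0.27 and -0.74) kept their sign and IRF2BP1 (-0.14, 0.19 and 0.26) did not. None passed there without the block.

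Among receptors and surface proteins, THBD, the endothelial thrombin receptor thrombomodulin, rose most. It was at 18.1, 16.8 and 16.7 TPM with control siRNA and at 43.2, 75.7 and 53.3 TPM with TAOK2 siRNA (1.65 ± 0.32 SE, n = 3, limma adjusted p = 0.00549). All 3 knockdown libraries lay above all 3 controls, though they differed among themselves. FZD8, a Wnt receptor, went from 12.1, 9.55 and 9.61 TPM to 14.6, 17.2 and 13.8 TPM (0.51 ± 0.13, adjusted p = 0.0186), while FZD9, another Wnt receptor, fell from 2.10, 2.05 and 1.79 TPM to 1.01, 0.884 and 0.881 TPM (-0.63 ± 0.09, adjusted p = 0.000892). CLDN3, a tight junction protein, fell from 9.74, 8.49 and 6.86 TPM to 5.07, 3.56 and 3.77 TPM (-0.87 ± 0.19, adjusted p = 0.00712). FZD8 no longer passed without control library 2 or 3 or TAOK2 library 2.

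Signalling proteins and transcription factors moved both ways. RHOB, a small GTPase induced by growth factors and stress, rose from 83.1, 79.3 and 99.5 TPM to 160, 157 and 184 TPM (0.93 ± 0.14, limma adjusted p = 0.00122). CEBPB, a leucine zipper factor of inflammatory and metabolic genes, fell from 168, 148 and 161 TPM to 110, 95.2 and 109 TPM (-0.60 ± 0.10, adjusted p = 0.00179). IER5L, related to the early-response gene IER5, fell from 79.4, 74.1 and 60.5 TPM to 46.5, 48.7 and 38.2 TPM (-0.67 ± 0.19, adjusted p = 0.0314). In the list of AP-1 and growth-factor-induced regulators, 1 of 8 rose and 2 fell, beside 7.43% and 13.1% of all genes. JUN and JUNB did not pass (0.38 ± 0.25 and 0.26 ± 0.30). RAP2B, a small GTPase, and RASSF10, a Ras-association protein, fell by 0.55 and 0.85 on the log2 scale. RASSF10 was lost without control library 1 or 2 or TAOK2 library 2 or 3, and IER5L without any 1 library but control library 3. FRAT2, which binds the kinase GSK3, and OTUD1, a deubiquitinase, were at -0.44 and 0.36, and neither passed when any 1 library was left out.

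Among nuclear and RNA-binding proteins, EID2 fell most. It went from 41.9, 37.7 and 45.4 TPM to 21.8, 23 and 21.1 TPM (-0.89 ± 0.16, limma adjusted p = 0.00247). EID2 is an inhibitor of differentiation that binds the acetyltransferase EP300. IRF2BP1, a transcriptional corepressor, and SOX12, a developmental transcription factor, were at -0.39 and -0.35. FANCF, a protein of the Fanconi anaemia repair complex, was at -0.38. ZCCHC3, an RNA-binding cofactor of nucleic acid sensing, rose by 0.32 ± 0.08, from 34.3, 33.7 and 32.3 TPM to 44.3, 39.8 and 41.7 TPM, but not without control library 3 or TAOK2 library 1. INAFM1, a small membrane protein, fell by 0.62 on the log2 scale.

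GC content again moved with the change. With TAOK2 siRNA, the median change was 0.07 below 45% GC (48 genes), -0.03 from 45% to 55% (53 genes), -0.09 from 55% to 65% (62 genes) and -0.21 from 65% (28 genes). In multi-exon genes of similar length the medians were -0.01, -0.04, -0.09 and -0.14, so they too went down with GC content. Of the 28 members from 65% upward, 8 fell and none rose, beside 76 and 17 of 412 multi-exon genes. Of the 48 below 45%, 3 rose and 1 fell, beside 266 and 318 of 2609 multi-exon genes. Spearman's rho was -0.32 over 191 members, and -0.38, -0.24 and -0.31 within batches. It was -0.15 over multi-exon genes.

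Compound 2 changed most intronless genes, downward in the main scaling. Of 194 members, 115 fell and 23 rose (limma, adjusted p under 0.05), or 59.3% and 11.9% (71.1% in all), beside 49.8% and 11.9% of all genes tested (61.6%) and 53.2% and 9.62% of multi-exon genes of similar length (62.8%). The medians were -0.56 for members, -0.32 for multi-exon genes of similar length and -0.29 for all genes. The difference of the medians was -0.24, with -0.24, -0.11 and -0.28 by batch. Centring each library on its median gene moved the median of all genes by 0.55. The members then split into 66 higher and 70 lower, or 34% and 36.1%, beside 46.2% and 21% of all genes. Unless stated otherwise, directions below are those of TPM as deposited; with centring, 20 of the 115 falls had the opposite sign and no rise did.

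**Figure D3:**
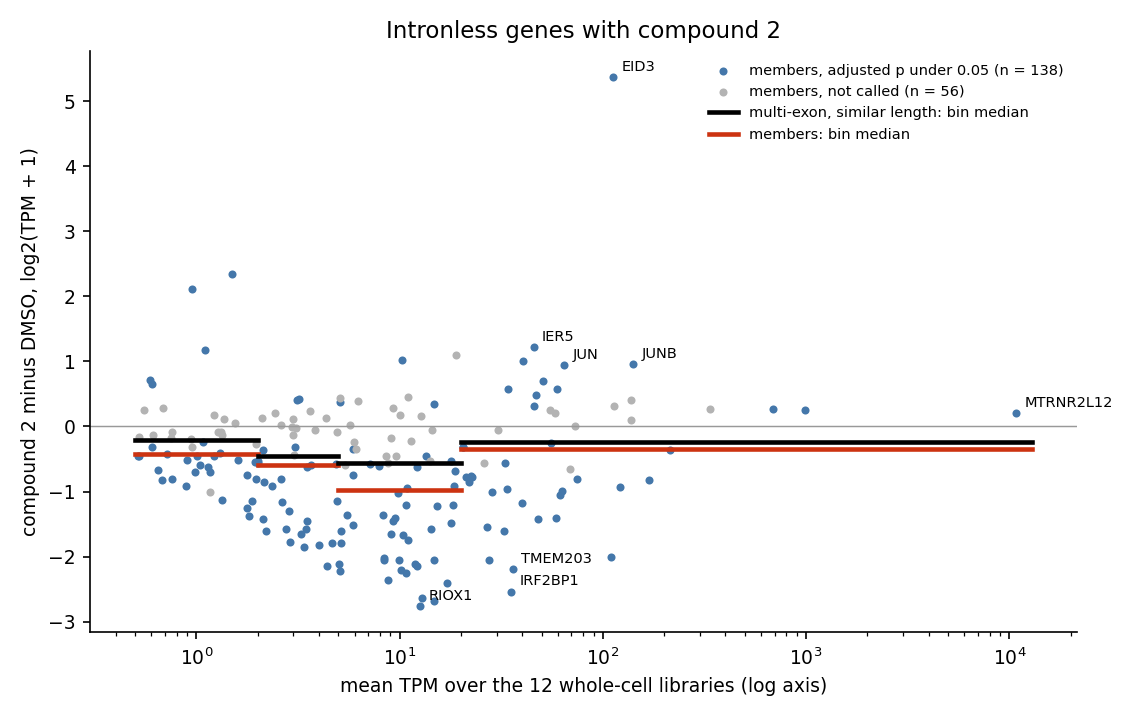
Change with compound 2 against DMSO on the log2(TPM + 1) scale for each of the 194 intronless genes (points, blue where the limma adjusted p was under 0.05) against mean TPM (log axis), with medians in 4 bins of level for members (red) and multi-exon genes of similar length (black). Between 5 and 20 TPM the members' median was -0.98 and that of multi-exon genes -0.56; above 20 TPM they were -0.34 and -0.24.

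The members' lower median was seen at every level, though not among the shortest members, and most clearly between 5 and 20 TPM. There, the median was -0.98, beside -0.56 for multi-exon genes of similar length. By calls, 41 of 62 members fell and 3 rose, beside 1523 and 180 of 2403 multi-exon genes. The called shares thus differed little. Below 2 TPM the medians were -0.43 and -0.21, from 2 to 5 TPM -0.59 and -0.45, and above 20 TPM -0.34 and -0.24. Above 20 TPM 13 of 48 members rose, beside 524 of 4166 multi-exon genes of similar length. Without the MTRNR2L genes, enclosed members and those with under 90% unique words, 84 of 127 members fell and 11 rose, with a median of -0.65. GC content bore little relation to the change in these members (rho -0.01).

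Among RNA-binding, transcription and translation proteins 13 of 24 fell and 3 rose, which turned to 8 and 11 with centring. Of all genes tested, 49.8% fell and 11.9% rose, or 21% and 46.2% with centring. In the main scaling this list thus lay near genes at large, and the list counts below are to be read beside these shares. RIOX1, an oxygenase that hydroxylates a ribosomal protein, fell most of all members named here. It was at 15.3, 15.8 and 16.8 TPM with DMSO and at 1.51, 1.42 and 1.57 TPM with compound 2 (-2.76 ± 0.08, limma adjusted p = 8.67e-10). The 3 libraries of each group lay close together. RBM15B, a subunit of the complex that methylates adenosine in mRNA, fell from 16, 19.1 and 16.8 TPM to 2.97, 4.17 and 3.22 TPM (-2.05 ± 0.11), and PURB, a single-stranded nucleic acid binding protein, by -1.75. PCBP1, a poly(C)-binding protein and in whole cells the most abundant member beside the MTRNR2L genes, fell less, from 194, 204 and 224 TPM to 151, 183 and 150 TPM (-0.36 ± 0.08), and with centring it turned to 0.18. HEXIM1, an inhibitor of the elongation kinase complex, did not pass (75.9, 54.8 and 69 TPM with DMSO against 79.5, 68.1 and 54.3 TPM). ZCCHC3 rose from 30.4, 26.7 and 28.7 TPM to 64.4, 55 and 55 TPM (1.0 ± 0.08, adjusted p = 3.52e-07).

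Of 12 transcription and chromatin regulators 7 fell and 3 rose, or 6 and 4 with centring. IRF2BP1 fell from 43.8, 43.9 and 46.8 TPM to 6.15, 8.50 and 6.27 TPM (-2.54 ± 0.10, limma adjusted p = 2.28e-09). CENPB, which binds centromeric repeats, fell from 144, 138 and 152 TPM to 37.9, 33.5 and 35.3 TPM (-2.0 ± 0.09). IRF2BPL, a relative of IRF2BP1, rose instead, from 43.1, 55.5 and 54.6 TPM to 71.7, 72.1 and 70.3 TPM (0.48 ± 0.11, adjusted p = 0.0016). Every compound 2 library lay below every DMSO library for IRF2BP1 and above every one for IRF2BPL. Of 11 developmental transcription factors, 2 rose and 5 fell, which turned to 5 and 3 with centring: FOXC1, a forkhead factor, and SOX4 rose by 1.02 ± 0.21 and 0.70 ± 0.10, and SOX12 fell by 1.18 on the log2 scale.

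In the list of AP-1 and growth-factor-induced regulators 4 of 8 rose and 3 fell, or 5 and 2 with centring. IER5, an early-response gene, rose from 33.8, 30.5 and 37.2 TPM to 88.1, 71.7 and 80.7 TPM (1.22 ± 0.09, limma adjusted p = 1.87e-07). JUN was at 50.8, 76.3 and 42.2 TPM with DMSO and at 129, 103 and 90.8 TPM with compound 2 (0.94 ± 0.25, adjusted p = 0.00684), and JUNB at 97.9, 194 and 98.9 TPM against 197, 330 and 215 TPM (0.96 ± 0.30, adjusted p = 0.0174). For both, every compound 2 library lay above every DMSO library. IER5L went from 47.8, 41.4 and 54.5 TPM to 92.9, 51.2 and 77.6 TPM, and its groups overlapped (0.58 ± 0.19, adjusted p = 0.0209). The 3 that fell were the C/EBP factors: CEBPA from 5.96, 6.58 and 6.47 TPM to 0.896, 1.49 and 1.01 TPM (-1.79 ± 0.11), CEBPB by -0.93 and CEBPD by -0.77. JUNB lost its call without compound 2 library 2 or DMSO library 1 or 3 (limma adjusted p up to 0.0698), and IER5L without compound 2 library 1 or 3 or DMSO library 2 (up to 0.0847).

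**Figure D4:**
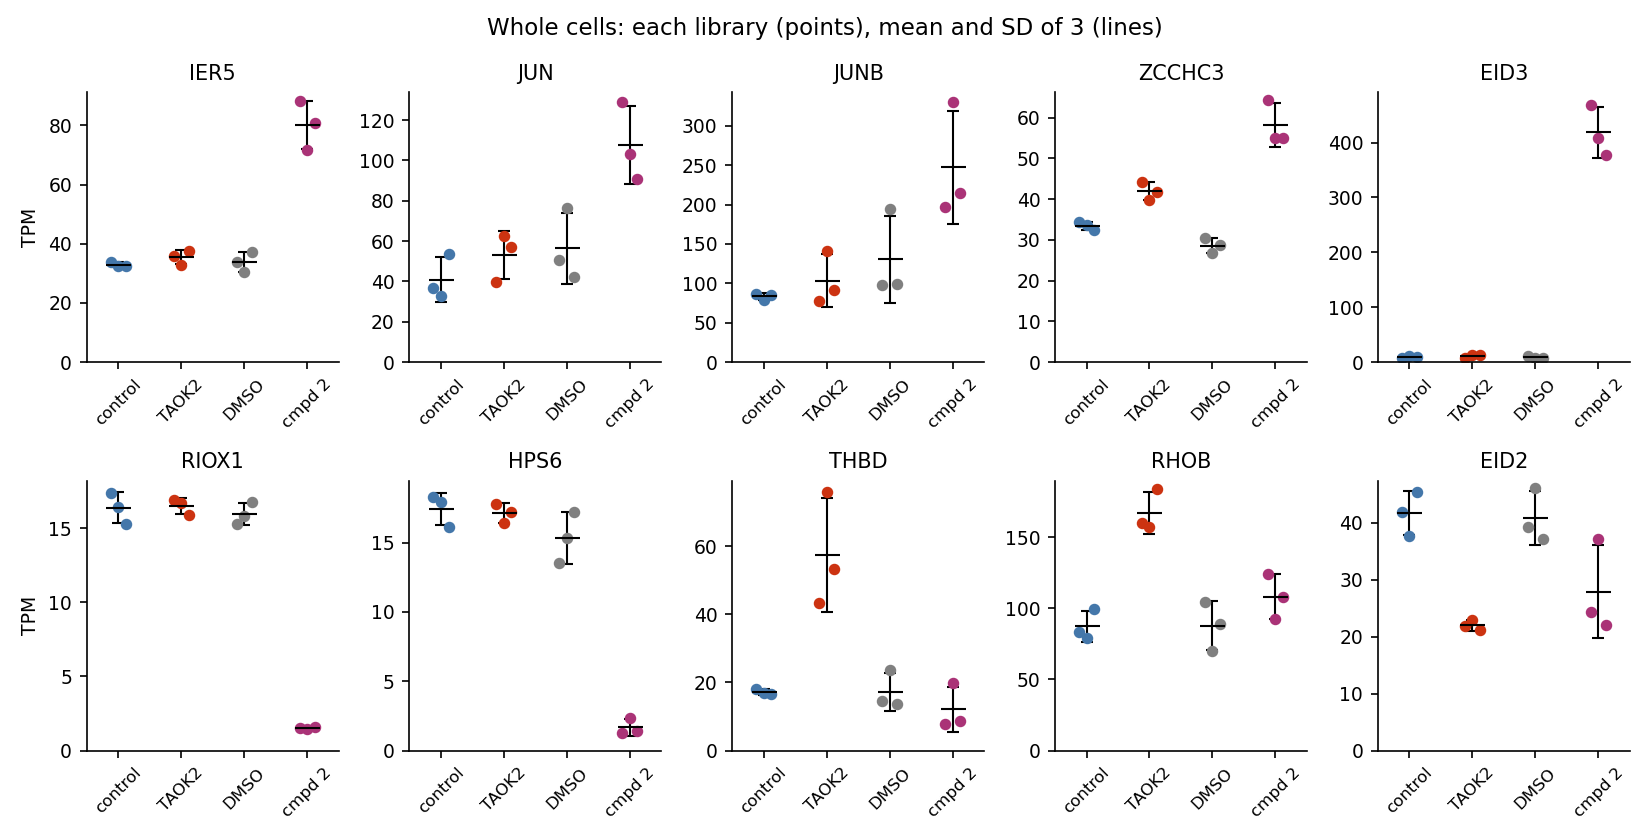
TPM of 10 intronless genes in the 4 whole-cell groups (control siRNA, TAOK2 siRNA, DMSO, compound 2), 1 point per library with the mean and SD of 3, each panel on its own axis from 0. RIOX1 and HPS6 drop with compound 2, to 1.42 to 1.57 TPM for RIOX1, while EID3 reaches 378 to 469 TPM; THBD, RHOB and EID2 change with TAOK2 siRNA.

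Receptors, glycosylation enzymes and vesicle proteins fell in the main. Of 11 G protein-coupled and Wnt receptors 9 fell and none rose, but with centring 4 fell and 2 rose. FZD8 went from 7.74, 9.28 and 9.36 TPM to 2.30, 3.21 and 2.30 TPM (-1.45 ± 0.13, limma adjusted p = 1.2e-06) and FZD2, the most abundant of them, from 65.1, 101 and 65.3 TPM to 23.5, 42.5 and 21.9 TPM (-1.40 ± 0.24). FZD9 and FZD1 fell by 1.13 and 0.51 on the log2 scale, and FZD1 turned to 0.03 with centring. All 5 glycosyltransferases and lipid anchor enzymes fell, 4 of them also with centring. MGAT2 went from 33.7, 35.5 and 34.6 TPM to 6.83, 8.20 and 7.83 TPM (-2.05 ± 0.08, adjusted p = 1.73e-09). B3GALT6, which builds the linker of proteoglycans, fell by 2.25, PIGM, a mannosyltransferase of GPI anchors, by 1.36, and FUT4, a fucosyltransferase, by 0.92. DOLK, whose product carries the sugars of N-glycans, fell by 2.40.

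Of 12 vesicle, organelle and membrane proteins 10 fell, 7 with centring, and 1 rose. HPS6, a subunit of the lysosome-related organelle complex BLOC-2, went from 13.5, 15.3 and 17.2 TPM to 1.26, 2.36 and 1.41 TPM (-2.63 ± 0.14, limma adjusted p = 1.26e-08). BORCS6, of the complex that places lysosomes, and BLOC1S4, of BLOC-1, fell by 2.02 and 1.22 on the log2 scale. TMEM203 fell from 43.8, 48.1 and 48.6 TPM to 8.95, 10.1 and 9.33 TPM (-2.19 ± 0.07). Among metabolic enzymes 7 of 11 fell and 1 rose, or 5 and 3 with centring, with PLPP6, a lipid phosphatase, at -2.36 and MOCS3, of molybdenum cofactor synthesis, at -2.22. Of 12 ubiquitin, BTB and signalling adaptors 9 fell and 1 rose, or 6 and 3 with centring, and KCTD11 and FRAT2 were at -2.21 and -2.15. RASSF10 fell from 17.4, 12.1 and 13.2 TPM to 1.47, 1.11 and 1.44 TPM.

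Members higher in the cytoplasm of control cells responded to compound 2 in different ways. SF3B5 did not pass with compound 2 (134, 139 and 139 TPM against 146, 144 and 152 TPM, 0.10 ± 0.05, limma adjusted p = 0.114), whereas MGAT2, TMEM203 and DOLK were among the larger falls. SEPHS2 fell from 62.1, 50.4 and 62.6 TPM to 20.4, 21.5 and 21.5 TPM (-1.42 ± 0.09). Of the members higher in the nucleus, WDR5B and CSTF2T fell by 2.15 and 2.11 on the log2 scale and IFNE by 1.66, while TIGD1 did not pass (0.29 ± 0.14). These measurements come from separate experiments and tables.

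Members enclosed by a same-strand gene responded in both directions. Of 20 such members 6 rose and 7 fell (median -0.24), beside 17 and 108 of the 174 others (median -0.58). Of all genes tested, 11.9% rose and 49.8% fell. EID3, inside an intron of TXNRD1, rose most of all members, from 11.3, 8.20 and 8.13 TPM to 469, 408 and 378 TPM (5.37 ± 0.19, limma adjusted p = 1.74e-09), with TXNRD1 at -0.47. SUMO4, a SUMO-like protein gene inside TAB2, rose from 0.188, 0.274 and 0.189 TPM to 4.68, 7.66 and 3.86 TPM (2.35 ± 0.17, adjusted p = 1.33e-07). HUS1B, a relative of a DNA damage checkpoint protein inside EXOC2, rose from at most 0.122 TPM to 2.91, 4.48 and 3.32 TPM (2.11 ± 0.12, adjusted p = 2.02e-08). SUMO4 and HUS1B averaged 1.5 and 0.948 TPM over the table and passed the limit of 0.5 TPM only through the compound 2 libraries. They could thus count only as rises, and the 6 rises rest in part on that limit. OCLM rose from 0.678, 0.519 and 0.524 TPM to 2.94, 3.78 and 1.38 TPM (1.18 ± 0.20). OXCT2, inside BMP8B, and YY2, inside MBTPS2, rose by 0.66 and 0.41, with 25.5% and 59.9% unique words. None of the 6 enclosing genes rose: TAB2 was at 0.00 (adjusted p = 0.977), EXOC2 at -0.29, ODR4 at -0.34, BMP8B at -0.28 and MBTPS2 at -0.69. SUMO4, HUS1B, OCLM, OXCT2 and YY2 were named after their values were seen, and the part of the enclosing genes in these values was not tested.

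The promoters below belong to members with large changes with compound 2, EID3 left out, and are shown because the CCAAT motif was found at different rates in members that rose and fell. Each is the 250 bases before the start of the gene, from the RefSeq table of GRCh38.p14, and capitals mark the CCAAT motif (read ATTGG from the other strand), the TATAAA motif (read TTTATA from the other strand) and the GGGCGG motif (read CCGCCC from the other strand). IER5 (chr1:181088450-181088699, plus strand) and JUNB (chr19:12791236-12791485, plus strand) rose. DOLK (chr9:128947604-128947853, minus strand) fell. All 3 carry CCAAT, so they do not themselves show the difference in rate. HPS6 and IRF2BP1, which fell by more than DOLK, had 0 matches to CCAAT, and FOXC1, which rose, had 1.
IER5: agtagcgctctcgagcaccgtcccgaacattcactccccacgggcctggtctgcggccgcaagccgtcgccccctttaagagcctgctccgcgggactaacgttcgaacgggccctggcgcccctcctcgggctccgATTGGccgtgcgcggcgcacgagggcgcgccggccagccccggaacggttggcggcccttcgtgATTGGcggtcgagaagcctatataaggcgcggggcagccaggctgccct
JUNB: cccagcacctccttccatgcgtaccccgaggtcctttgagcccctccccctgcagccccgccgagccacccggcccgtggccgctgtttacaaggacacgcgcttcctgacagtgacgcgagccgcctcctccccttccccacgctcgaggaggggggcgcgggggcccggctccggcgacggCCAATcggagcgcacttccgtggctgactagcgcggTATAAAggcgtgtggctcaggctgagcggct
DOLK: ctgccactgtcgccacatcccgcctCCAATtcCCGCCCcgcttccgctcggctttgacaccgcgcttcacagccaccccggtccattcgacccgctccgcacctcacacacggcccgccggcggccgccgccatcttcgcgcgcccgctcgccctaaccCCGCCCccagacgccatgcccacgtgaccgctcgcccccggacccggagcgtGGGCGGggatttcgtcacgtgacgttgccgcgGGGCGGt
The table matched 152 of the 213 members. CCAAT was found in 11 of the 15 matched members that rose (73.3%), in 27 of the 85 that fell (31.8%) and in 34.8% of the 135 matched members tested. Among all 27305 promoters of the table its share was 33%, and among 10260 of multi-exon genes 34.8%. GGGCGG was found in 53.3% of the risers, 68.2% of those that fell and 42.3% of all promoters, but in 67.1% of those of multi-exon genes and 66.7% of members tested. TATAAA was found in 20% of the risers, 5.88% of those that fell, 11.1% of all promoters, 5.25% of those of multi-exon genes and 8.15% of members tested. No motif match overlaps another in these 3 promoters. A match is a run of letters, and nothing here measures binding. The motif counts were made after the changes were known and were not tested.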

How the data were processed

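The authors deposited TPM values per transcript, 1 table for 12 whole-cell libraries and 1 for 12 fraction libraries. They were made with kallisto and GRCh38.p14, per the submitters' processing notes, from paired reads of 150 bases, per the labels' protocols. The kallisto version and the settings that went with it are unknown here. Of 188753 transcripts listed, 169797 matched GENCODE 29 and carried 97% to 98.35% of TPM (fractions) or 97.45% to 97.57% (whole cells). They were summed to 35579 genes, and each table was tested alone. Reads of near-identical genes are shared out by an estimate, so the share of 31-base words unique to a gene is given. TPM keeps no read depth, so no counting interval can be given.

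Genes averaging 0.5 TPM or more were tested with limma 3.58.1 (trend, robust; statmod 1.5.0, R 4.3.3) on log2(TPM + 1) over the 12 libraries of a table, with Benjamini-Hochberg adjustment over all genes and a threshold of 0.05. Fold changes on this scale understate changes of low genes. Tables were handled in Python 3.11.15 with pandas 2.3.3 and numpy 2.4.6.

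Each group has 1 library per batch in the labels. Same-batch libraries deviated together in the fractions (r 0.517 to 0.816, all 30 pairs above 0.1) but not throughout in whole cells (r -0.278 to 0.616, 12 of 18 pairs above 0.1). Batch as a block was an alternative, as were another pseudocount, other filters, both other scalings, other length matching, limma without trend or robust, and leaving out each library. Simulated data had noise independent between libraries and were tested without the block. There the test found 96% and 99% of genes changed by 1 and 2 log2 units for TAOK2 siRNA in whole cells. It found 94% and 98% for compound 2, and 20% and 73% for control nuclei against cytoplasm.

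The members and lists were chosen with earlier results of these data known. Genes were named by rule: the 10 largest rises and falls among called members with a mean of at least 5 TPM and 1 sign in every batch, the 10 most abundant members of each table, up to 4 of a list by level, and EID3, JUN, HSPA1A and HSPA1B. Outside it, BLOC1S4, BORCS6, CEBPA, CEBPD, CENPB, EBLN2, FANCF, FZD1, FZD9, GPR27, HASPIN, PNMA1, PURB, RBM15B and TAS2R4 were named after their values were seen. The bins of GC content and level, and setting aside MTRNR2L genes or shared sequence, were chosen after seeing the data. Some items are not reported here.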

Additional observations from a re-analysis of the deposited data

How the results depend on the processing

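Among the members with the largest changes, under every alternative run for them (centring was not), none reversed: 194 values kept direction and call and 6 lost the call with compound 2, 120 and 40 with TAOK2 siRNA, 144 and 16 between control fractions, and 143 and 17 between fractions with TAOK2 siRNA. Batch as a block, the pairing the labels give, raised the nuclear and cytoplasmic counts to 42 and 56 (control siRNA) and 45 and 48 (TAOK2 siRNA). With the block, TAOK2 siRNA gave 1 rise and 4 falls in nuclei and 5 falls in cytoplasm. It moved no other count by over 1.5 times. With TPM recomputed, members higher and lower in the nucleus numbered 61 and 13, and 64 and 9. With centring, 64 and 55 were lower, and compound 2 gave 66 rises and 70 falls, 20 of the main falls changing sign, PCBP1 (to 0.18, adjusted p = 0.0441) and FZD1 (to 0.03) among them. Without members that overlap another gene, falls with TAOK2 siRNA were 16 (16 also with no filter), compound 2 gave 11 and 58, and the nuclear and cytoplasmic counts were 14 and 18, and 17 and 11. Without members of shared or no sequence 16 and 18 were higher in the nucleus, and with a filter of 1 TPM 17 (control siRNA). The difference of medians between members and multi-exon genes of similar length stayed below 0 for compound 2 (-0.42 with a pseudocount of 0.1, -0.34 with a filter of 5 TPM). For control fractions it was -0.30 with that pseudocount or median transcript length, -0.26 with a filter of 1 TPM, -0.31 recomputed or without MTRNR2L genes, -0.27 over length quartiles, -0.34 over TPM bins, -0.35 over GC bins, -0.28 without overlaps and -0.36 without shared sequence. With TAOK2 siRNA it was -0.06 (filter of 5 TPM) and -0.28 (median length). For the knockdown in total RNA it was -0.03 (pseudocount, length quartiles, without MTRNR2L genes or shared sequence), -0.02 (filter of 1 TPM, GC bins), -0.05 (median length), 0.0 (TPM bins) and -0.04 (without overlaps), in nuclei 0.02 (TPM bins), and in cytoplasm -0.18 (filter of 5 TPM). Leaving out 1 library gave 5 to 9 rises and 12 to 20 falls with TAOK2 siRNA. It gave 18 to 24 members lower in control nuclei and 22 to 36 higher and 10 to 26 lower with TAOK2 siRNA, with differences of -0.33 to -0.12 and -0.31 to -0.08. The differences were -0.12 to 0.03 for the knockdown in total RNA, -0.12 to 0.02 in nuclei, -0.22 to 0.0 in cytoplasm and -0.09 to 0.20 for the ratio change. Total RNA turned to 0.03 without control library 1 and 0.02 without TAOK2 library 2. The ratio change turned to 0.0 without the first control cytoplasmic or first TAOK2 nuclear library, -0.01 without the second control nuclear one and -0.09 without the second TAOK2 cytoplasmic one. The cause of these moves was not tested. With 2 libraries a group and no read depth, small changes in fractions can be missed, above all without the block. With the block, some knockdown changes below 1 log2 unit passed, such as TIGD1 (-0.73) and HASPIN (0.62) in nuclei.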
